A study of Equus caballus with 93 samples.

Results

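In horses with a surgically made osteochondral fragment in the middle carpal joint, 150 genes of the synovial fluid cells were lower 2 weeks after surgery than before it, and on average over weeks 4 to 10 had come back near the level they started from. The genes were chosen by that course among 15838 in the table. Each had a mean log2 CPM (reads relative to library size, on a log2 scale) of at least 1, a week 2 mean at least 1 below its week 0 mean, and a mean over weeks 4 to 10 that lay below week 0 by no more than 0.33 of that fall. With 6 identifiers left out, 250 genes met these limits, and the 150 with the lowest week 2 minus week 0 values were taken. The fall and the average return are therefore what chose the genes and are given below as a description, without a test. The differences between the arms, and those among weeks 4, 6, 8 and 10, were not used in the choice and were tested. The choice still bears on the differences among weeks, as stated with that test.

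The study enrolled 16 horses aged 2 to 5 years, 7 mares and 9 geldings. All 16 had the fragment made in 1 middle carpal joint and a sham operation on the other limb, and all were exercised 5 days a week from week 2 to week 10. At week 2 the joint with the fragment received 2 mL of 2.5% injectable polyacrylamide hydrogel (iPAAG, 8 horses) or 2 mL of phosphate buffered saline (Control, 8 horses). Fluid of that joint was drawn at weeks 0, 2, 4, 6, 8 and 10, with week 0 before surgery, and RNA of its cells was sequenced in 93 libraries. Whether the injection preceded the week 2 draw is not stated in the labels. Both arms share the surgery, the exercise and the passing of time, whose parts in a change over weeks cannot be told apart.

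An osteochondral fragment is a chip of cartilage and bone, and the model is used to study early osteoarthritis of the horse carpus. Synovial fluid normally holds few cells, mainly macrophages, lymphocytes and cells shed from the joint lining, and neutrophils enter it when the joint is inflamed. The hydrogel is a cross-linked polymer injected into the joint space. Genes carry Ensembl horse identifiers in the deposited table, and 0 of these could be paired with a gene symbol, so the genes cannot be described by pathway or cell type. For the same reason the identity of the cells was not tested against marker genes. In a bulk sample of this kind, fewer cells of a type and less RNA per cell cannot be told apart.

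The libraries fell into 2 kinds. The spread of a library, the SD over its genes of log2 CPM, was 2.19 to 4.21 in 70 libraries (41 Control, 29 iPAAG) and 1.20 to 1.90 in the other 23 (6 Control, 17 iPAAG, from 12 horses). The rule used only the 70, which held 6076026 to 39916655 reads in genes. They number 15, 14, 10, 10, 13 and 8 at weeks 0, 2, 4, 6, 8 and 10, of which 7, 7, 3, 4, 6 and 2 are iPAAG. Their median spread stayed between 3.37 and 3.60 over the 6 weeks, and their median depth between 19156757 reads at week 6 and 29443605 at week 0. The 23 narrow libraries held 1737741 to 12597216 reads. Unless stated otherwise the values below are from the 70 wide libraries, and the narrow ones are described separately.

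The level of the 150 genes as a group followed the course that chose them, but the return came late. The mean of their log2 CPM in a library was 3.92 ± 0.87 (SD, n = 15 libraries) at week 0, with a lowest, median and highest of 1.73, 4.03 and 4.92. At week 2 it was 2.31 ± 0.76 (SD, n = 14), from 1.20 over a median of 2.40 to 3.89. At week 4 it was still 2.49 ± 1.02 (SD, n = 10), from 0.46 over 2.47 to 4.26. The ranges of weeks 2 and 4 overlapped almost wholly, and all but 1 of their libraries lay below the week 0 median. At week 6 the mean was 3.69 ± 0.73 (SD, n = 10), from 2.46 over 3.80 to 4.54. At week 8 it was 4.23 ± 0.79 (SD, n = 13), from 2.66 over 4.44 to 4.98, and at week 10 it was 4.25 ± 0.49 (SD, n = 8), from 3.60 over 4.27 to 5.04. No library of week 10 was as low as the median library of week 2 or week 4. These means describe the genes as a group and do not compare 1 gene with another, since CPM does not account for gene length.

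**Figure D1:**
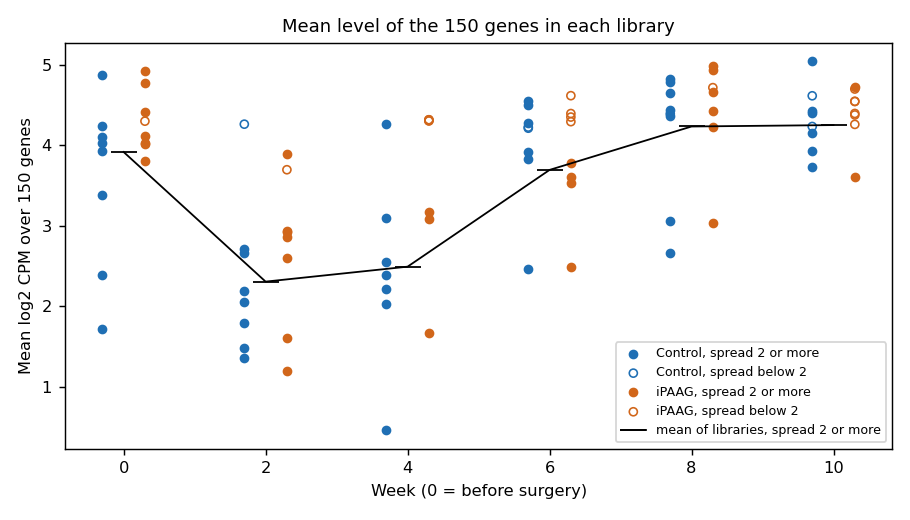
Mean log2 CPM of the 150 genes in each library (y axis) by week after surgery (x axis), with Control in blue and iPAAG in orange. Filled points are the 70 libraries of spread 2 or more, open points the 23 of spread below 2, and the line joins the weekly means of the filled points, which run from 3.92 at week 0 through 2.31 and 2.49 at weeks 2 and 4 to 4.25 at week 10.

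Gene by gene, the difference between the week 2 and week 0 means ran from -3.19 to -1.24 on the log2 scale, with a median of -1.48. The last gene taken stood at -1.2409 and the first left out at -1.2392, so the lower edge of the group is a limit on number and not a gap in the data. At the limit on the later level, the gene just inside had regained all but 0.3299 of its fall, and the gene just outside all but 0.3308. The mean of weeks 4 to 10 lay -0.99 to 0.51 from week 0 over the 150 genes (median -0.29), and 0.89 to 2.41 above week 2 (median 1.32).

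Week by week, the median difference from week 0 began at -1.48 for week 2 and -1.37 for week 4. It was -0.25 for week 6, 0.29 for week 8 and 0.33 for week 10. None of the 150 genes was above its week 0 mean at week 4. The number above it was 27 by week 6, 123 by week 8 and 119 by week 10. Expressed as the share of the week 2 fall that had been regained, the median gene stood at 13.8% at week 4 and at 84.5% at week 6, then passed its starting level with 119% (week 8) and 122% (week 10). At week 4, 139 genes had regained under 50% of their fall and 51 were lower than at week 2, while at week 6 149 had regained 50% or more. Among the 4 weeks after the injection, 147 genes had their lowest mean at week 4, and the highest mean fell in week 8 for 70 genes, in week 10 for 78 and in week 6 for 2. The average over weeks 4 to 10 that defines the group thus joins week 4, which was still low, week 6, at which most of the genes were just under their start, and weeks 8 and 10, at which most were above it.

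The neighbouring course in these data belonged to 606 genes that met the same limits on level and fall but whose mean over weeks 4 to 10 stayed lower. No limit on number was set for them, while the 150 are the deepest falls of the 250 that met the rule, so the sets differ in that too. Their median difference from week 0 started at -1.34 for week 2 and -0.91 for week 4. It was -0.79 for weeks 6 and 8 and -1.15 for week 10. At week 4 these 606 genes therefore had a smaller median deficit than the 150 genes, and from week 6 a larger one. The later weeks separate the groups by construction, since the rule split them on the mean of weeks 4 to 10. The median over all 11818 genes whose mean log2 CPM was at least 1 stayed between -0.04 and -0.01 at every week.

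**Figure D2:**
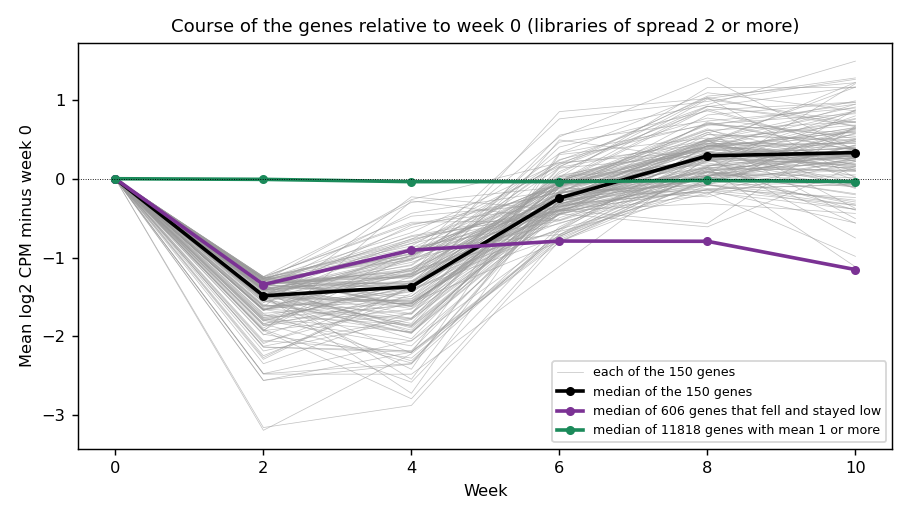
Difference of each weekly mean log2 CPM from the week 0 mean (y axis) by week (x axis), over the 70 libraries of spread 2 or more. Grey lines are the 150 genes, and the thick lines are medians: black for the 150 genes (-1.48 at week 2, -1.37 at week 4, 0.33 at week 10), purple for the 606 that fell and stayed low (-1.15 at week 10), green for all 11818 genes with a mean of at least 1.

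The median of the 150 genes fell in each horse with both libraries, in unequal size. The same libraries chose the genes by their fall, so the count of horses is a description and not separate support. The median over the 150 genes of week 2 minus week 0 was below 0 in 14 of 14 horses and ran from -3.77 in horse 7 to -0.15 in horse 17, where 66 of the 150 genes were higher at week 2. From week 2 to week 4 the horses went different ways. Of the 9 horses with both libraries, 5 had a higher median at week 4, up to 2.11 in horse 1, and 4 a lower one, down to -2.36 in horse 9. The mean of a horse's later libraries was above its week 2 library in 12 of 14 horses by this median. The exceptions were horse 9 at -2.36, whose only later wide library was week 4, and horse 12 at -0.14. The week 2 libraries of horses 17 and 12 had spreads of 2.49 and 2.39, against 3.45 and 3.48 at week 0. That of horse 7 had 3.97. Horses 9, 11 and 13, with week 2 minus week 0 medians of -0.69, -0.70 and -0.65, had week 2 spreads of 3.65, 3.54 and 3.39. The part of library spread in these differences between horses was not tested.

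The genes had reads enough for these levels in most libraries. The median gene had a median of 395.5 reads in the week 0 libraries, and of 90 and 87.25 reads in those of weeks 2 and 4. In weeks 6, 8 and 10 it had 200.25, 333 and 339 reads. No read was found for 29 of the 150 genes in at least 1 wide library, and 121 were read in all 70. Where a gene had few reads, the 0.5 reads added before the log pull its difference towards 0.

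The 2 genes with the deepest fall were ENSECAG00000018067 and ENSECAG00000013567. ENSECAG00000018067 had a log2 CPM of 7.12 ± 0.93 (SD, n = 15) at week 0, with a lowest, median and highest library of 5.42, 7.02 and 8.39. At week 2 it stood at 3.93 ± 1.33 (SD, n = 14; 0.55, 3.93 and 6.41) and at week 4 at 4.90 ± 1.49 (SD, n = 10; 2.28, 4.94 and 7.60). It was lower at week 2 than at week 0 in 14 of 14 horses. Only the highest week 2 library, that of horse 17, and 3 of the 10 week 4 libraries reached into the range of week 0. The lowest, that of Control horse 11 at week 2, held 27 reads of the gene against 729 in the same horse at week 0. At week 6 the gene stood at 6.35 ± 1.10 (SD, n = 10; 3.90, 6.74 and 7.54), at week 8 at 7.22 ± 1.13 (SD, n = 13; 5.05, 7.55 and 8.89) and at week 10 at 6.92 ± 0.97 (SD, n = 8; 5.30, 7.01 and 8.25).

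ENSECAG00000013567 had a lower read level and a wider scatter. Its log2 CPM was 3.54 ± 2.08 (SD, n = 15; lowest -2.76, median 4.11, highest 5.92) at week 0 and 0.38 ± 1.67 (SD, n = 14; -2.24, 0.51 and 2.59) at week 2. It was 0.66 ± 2.00 (SD, n = 10; -2.40, 0.66 and 4.25) at week 4. The week 0 and week 2 ranges overlapped at the low end of week 0, and the gene was lower at week 2 in 13 of 14 horses. Its means at weeks 6, 8 and 10 were 2.75 ± 1.16 (SD, n = 10; 0.44, 3.16 and 4.18), 3.53 ± 0.87 (SD, n = 13; 2.08, 3.40 and 5.08) and 3.24 ± 1.49 (SD, n = 8; 0.87, 3.91 and 5.13). Every week 8 library was above the week 2 median.

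ENSECAG00000012558 and ENSECAG00000024841 had the largest rise from week 2 to the later weeks on average among the other 148 genes, at 2.22 and 2.20 on the log2 scale. The log2 CPM of ENSECAG00000012558 was 1.27 ± 2.15 (SD, n = 15; -1.40, 0.96 and 5.58) at week 0, -0.71 ± 2.19 (SD, n = 14; -5.48, -0.50 and 2.56) at week 2 and -0.11 ± 1.50 (SD, n = 10; -1.61, -0.23 and 2.73) at week 4. It then stood at 1.29 ± 1.04 (SD, n = 10; 0.13, 1.06 and 2.95) at week 6, 2.43 ± 2.04 (SD, n = 13; -2.96, 3.05 and 4.96) at week 8 and 2.43 ± 1.66 (SD, n = 8; 1.03, 1.91 and 5.58) at week 10. The ranges of all 6 weeks overlapped, and it was lower at week 2 than at week 0 in 11 of 14 horses.

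ENSECAG00000024841 peaked at week 8. Its log2 CPM was 7.09 ± 0.93 (SD, n = 15; 5.77, 7.22 and 8.63) at week 0 and 4.82 ± 1.16 (SD, n = 14; 2.56, 4.84 and 6.79) at week 2, lower in 12 of 14 horses. It was 5.72 ± 1.57 (SD, n = 10; 2.74, 5.74 and 8.23) at week 4 and 7.15 ± 1.22 (SD, n = 10; 4.30, 7.50 and 8.38) at week 6. At week 8 it reached 8.11 ± 1.03 (SD, n = 13; 6.28, 8.05 and 9.82), and at week 10 it stood at 7.10 ± 0.96 (SD, n = 8; 5.11, 7.30 and 8.06). The highest libraries of weeks 0 and 10 lay below the highest of week 8, but all 3 ranges overlapped.

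**Figure D3:**
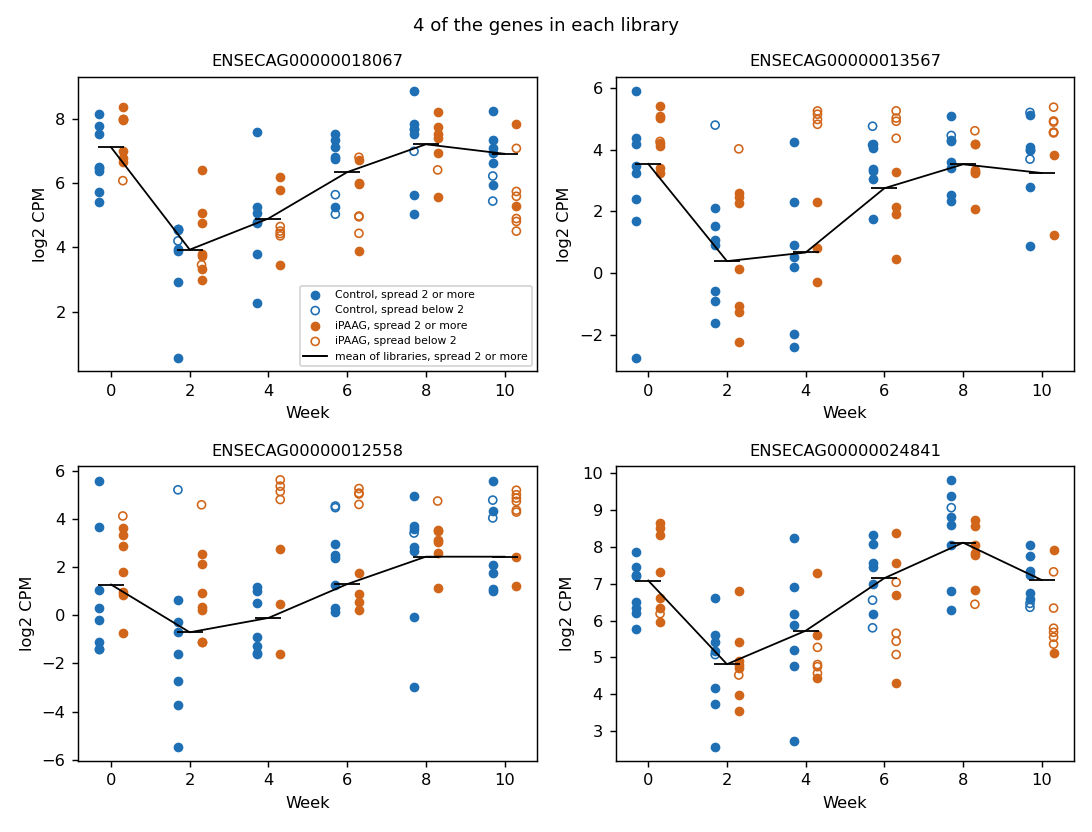
Log2 CPM (y axes) by week (x axes) of ENSECAG00000018067, ENSECAG00000013567, ENSECAG00000012558 and ENSECAG00000024841 in each library, Control in blue and iPAAG in orange. Filled points are libraries of spread 2 or more with their weekly means joined by the line, and open points are libraries of spread below 2, which for ENSECAG00000013567 and ENSECAG00000012558 lie between 3.41 and 5.62 at every week.

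The first tested comparison asked when, within the period after the injection, the genes were high. Weeks 8 and 10 were set against weeks 4 and 6, with the arms averaged, a contrast that the rule did not use. The choice still bears on it, since a gene low at week 2 that returns slowly must be higher late to reach the limit. The share over all genes, and that of the 606 genes with a low later mean, is therefore not a like background. Of the 150 genes, 110 rose and none fell by limma with Benjamini-Hochberg adjustment over all 15838 genes at 0.05. Of all genes in the table, 10.6% were called higher and 22.7% in either direction. The median difference over the 150 genes was 1.17 on the log2 scale, from -0.31 to 2.32, with a median standard error (SE) of 0.36, and 148 were above 0. The 110 genes called rose by 0.77 to 2.32 (median 1.27), and the other 40 lay between -0.31 and 1.33 (median 0.69). Of the 606 genes that fell and stayed low, 99 rose and 86 fell, with a median of -0.20. The median over all genes was -0.01.

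Each of the 4 named genes was called in this comparison, but they were picked by their fall to week 2 or their rise to weeks 4 to 10. Weeks 8 and 10 are part of that rise, so their values here are a description and not separate support. ENSECAG00000018067 was higher at weeks 8 and 10 by 1.42 ± 0.36 (SE, limma adjusted p = 0.00506), and in 12 of 12 horses. ENSECAG00000013567 was higher by 1.63 ± 0.51 (SE, limma adjusted p = 0.0184), also in 12 of 12 horses. ENSECAG00000012558 was higher by 1.63 ± 0.57 (SE, limma adjusted p = 0.0333) and ENSECAG00000024841 by 1.11 ± 0.38 (SE, limma adjusted p = 0.0288), each in 11 of 12 horses. Over the whole group the median of a horse's own differences was above 0 in 12 of 12 horses, from 0.37 to 1.90, and 112 to 149 of the 150 genes were higher in each of them. The differences by horse used the wide libraries each horse had, so the weeks compared were not the same. Horses 8 and 17 had only week 4 against week 8, and horse 14 only week 6 against week 10. Their sizes are therefore not those of the fitted contrast.

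**Figure D4:**
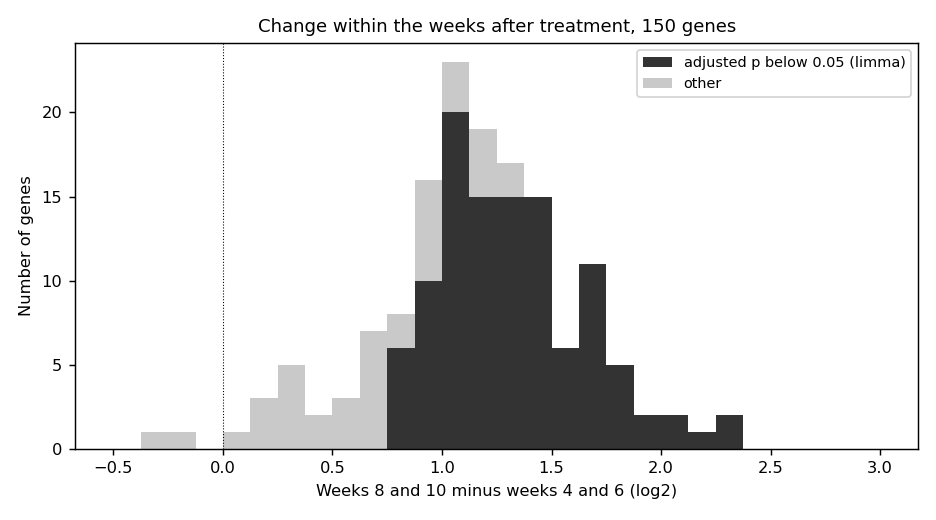
Number of genes (y axis) by the fitted difference of weeks 8 and 10 minus weeks 4 and 6 on the log2 scale (x axis), for the 150 genes. Dark bars are the 110 genes with an adjusted p below 0.05 and grey bars the other 40, and 148 of the 150 lie above 0.

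The number of genes called in that comparison rested on 1 horse, while its size did not. Without horse 5 only 6 of the 150 genes were called, with 0.271% of all genes called higher, although 149 were above 0 and the median was 0.99. Horse 5 gave 1 of the 2 wide iPAAG libraries of week 10, and leaving it out leaves that group with horse 14 alone, which is then assumed to vary like the other groups. When the libraries of a week were given equal weight, with no term for arm, 117 genes were called (10.4% of all genes higher), and 91 without horse 5 (4.96%). Week 8 alone against weeks 4 and 6 gave 88 genes called, all higher, with 4.99% of all genes called higher. That count was 40 to 55 without horse 2, 6, 10 or 17, with medians of 1.08 or more and the share of all genes not given here. Without horse 5 the median of the week 8 comparison was 1.11. With all 93 libraries 74 of the 150 genes were called higher (3.69% of all genes), with a median of 0.84. Without horse 5 the adjusted p of the 4 named genes was above 0.05 for each. ENSECAG00000013567 was also not called with all 93 libraries, ENSECAG00000024841 without horse 12, and ENSECAG00000012558 with all libraries or without horse 8, 11, 12 or 14. Over all alternatives their highest adjusted p-values were 0.113 for ENSECAG00000018067, 0.372 for ENSECAG00000013567, 0.198 for ENSECAG00000012558 and 0.228 for ENSECAG00000024841.

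Within each arm the same difference was positive for nearly all of the genes, while the number called depended on the fit and on single horses. In Control horses the median was 1.03, 149 of the 150 genes were above 0, and 1 was called (0.0695% of all genes called higher). In iPAAG horses the median was 1.29, 146 were above 0, and 18 were called (3.15%). Leaving out 1 horse gave 0 to 10 genes called in Control, with the 10 without horse 1. In iPAAG 3 were called without horse 17, 8 without horse 12, 32 without horse 9 and 29 without horse 11 (3.88% of all genes higher). The share of all genes is not given for the fits without horses 1, 9, 12 and 17, so their counts cannot be set against it. Without horse 5, which leaves horse 14 alone at week 10, the iPAAG median was 0.97. With array weights, which give less weight to libraries that scatter more, 84 genes were called in Control and 51 in iPAAG, all higher, when 4.05% and 8.1% of all genes were called higher. The median stayed at 0.86 or more in each of these fits. Whether the difference between weeks was of unequal size in the arms was not tested.

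The narrow libraries, which had no part in choosing the genes, had higher late values for some of the genes only. Their spread also differed between weeks. In these 23 libraries the mean of the 150 genes was 3.70 to 4.71, close to the median of all genes in the same libraries (4.24 to 4.49), and the SD over the 150 genes within a library was 1.03 to 1.43 against 1.49 to 3.20 in the wide libraries. Their depth was also lower, as given above. Weeks 8 and 10 (10 libraries) minus weeks 4 and 6 (10 libraries) gave a fitted median of 0.00 over the 150 genes with 75 above 0, and 0 genes called by limma of the 150 or of the whole table (0% of all genes called higher). At an unadjusted p under 0.05 there were 42 of the 150 and 5209 of all genes.

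The values there went with the read level of a gene. In the narrow libraries the 50 of the 150 genes with the highest mean log2 CPM in the wide libraries (3.97 to 8.62) had a median difference of 0.45 between the mean of weeks 8 and 10 and that of weeks 4 and 6, with 37 of 50 above 0. The 50 with the lowest mean (1.03 to 2.55) had a median of -0.12, with 15 of 50 above 0. Over all 11818 genes with a mean of at least 1 the same difference had a median of 0.10, with 61.0% above 0. Other genes of a high read level were not set apart, so a rise particular to the 50 is not shown. This split was chosen after the values were seen and was not tested.

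In narrow libraries ENSECAG00000018067 stood at 6.08 in the only one of week 0 and at 3.46 and 4.21 in the 2 of week 2. At week 4 it was 4.36, 4.43, 4.51 and 4.65, and at week 8 it was 6.42 and 7.00. Its fitted difference of weeks 8 and 10 minus weeks 4 and 6 in these libraries was 1.24 ± 0.33 (SE, limma adjusted p = 0.0994), near the value in the wide ones. ENSECAG00000024841 stood at 6.19 at week 0, at 4.52 and 5.08 at week 2, at 4.57, 4.75, 4.81 and 5.27 at week 4, and at 6.44 and 9.06 at week 8. Its difference was 1.58 ± 0.34 (SE, limma adjusted p = 0.0898). At week 10, in 8 narrow libraries, ENSECAG00000018067 ran from 4.51 over a median of 5.52 to 7.09 and ENSECAG00000024841 from 5.36 over 6.07 to 7.32. In the 6 of week 6 they ran from 4.44 over 5.01 to 6.81 and from 5.08 over 5.73 to 7.04. Both genes thus had higher libraries at week 8 than at weeks 2 and 4 in this set. Those of weeks 6 and 10 overlapped each other, and neither gene passed the adjusted threshold. Median spread differed too, from 1.32 (narrow, week 4) to 1.64 (narrow, week 8). Among narrow week 10 libraries, ENSECAG00000018067 was 4.51 at the lowest spread (1.20), and 7.09 and 6.23 at spreads of 1.82 and 1.90. The week 2 pair went the other way, with 4.21 at 1.34 and 3.46 at 1.68. The part of spread in the rise of these genes was not tested.

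The other pair had differences below 0 in the narrow libraries, which did not pass the threshold either. ENSECAG00000013567 was at 4.27 at week 0, 4.03 and 4.80 at week 2, and 4.83 to 5.26 at week 4, with a difference of -0.25 ± 0.21 (SE, limma adjusted p = 0.372). ENSECAG00000012558 was at 4.12 at week 0, 4.59 and 5.21 at week 2, and 4.80 to 5.62 at week 4, with a difference of -0.67 ± 0.20 (SE, limma adjusted p = 0.105). Over the whole group, horse 14, with narrow libraries at weeks 0 and 2, had 125 of the 150 genes lower at week 2 and a median of -0.42. Horse 10, whose week 2 library alone was narrow, had 68 lower and a median of 0.20. The part of library spread and depth in these differences was not tested. The covariate fits given with the limits used the wide libraries only.

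The remaining comparisons asked whether the hydrogel arm differed from the saline arm. In the difference of weeks 4 to 10 from week 2, iPAAG minus Control, 0 of the 150 genes and 0% of all genes were called by limma. At an unadjusted p under 0.05 there were 9 of the 150 and 1682 of the 15838. The median over the 150 genes was -0.49 on the log2 scale (-2.72 to 1.80, median SE 0.67), with 20 above 0, against -0.09 over all genes. With libraries of spread 3 or more that median was 0.13, with 88 of the 150 above 0, so its direction depended on which libraries were used. The widest such difference among the named genes was that of ENSECAG00000012558, at -2.54 ± 1.06 (SE, limma adjusted p = 0.386).

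Over weeks 4 to 10 no difference between the arms in the level of the 150 genes was detected. None was called by limma, against 0.385% of all genes. An unadjusted p under 0.05 was reached by 20 of the 150 (13.3%) and by 2631 of all genes (16.6%). The median of iPAAG minus Control was 0.00 (-1.44 to 1.78, median SE 0.40), with 76 above 0. The mean of the 150 genes was 1.67, 3.09 and 3.17 in the 3 iPAAG libraries of week 4, against 0.46 to 4.26 (median 2.39) in the 7 Control libraries. At week 6 it was 2.49, 3.53, 3.61 and 3.78 in iPAAG and 2.46 to 4.54 (median 4.10) in 6 Control libraries. At week 8 it was 3.04 to 4.98 (median 4.54) in 6 iPAAG and 2.66 to 4.82 (median 4.44) in 7 Control libraries, and at week 10 3.60 and 4.72 in iPAAG and 3.73 to 5.04 (median 4.27) in 6 Control libraries. The arms overlapped at each of these weeks. With all 93 libraries 41 of the 150 genes were called, 35 higher and 6 lower in iPAAG, when 52.9% of all genes were called, 20.3% higher and 32.6% lower. Of the 23 libraries this adds, 17 are iPAAG, and their spread is below 2.

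Before surgery the middle of the iPAAG values was the higher one, but none of the 150 genes was called by limma (0% of all genes). The mean of the 150 genes at week 0 was 4.29 ± 0.42 (SD, n = 7) in iPAAG, from 3.80 over 4.11 to 4.92, and 3.58 ± 1.04 (SD, n = 8) in Control, from 1.73 over 3.98 to 4.87. The low end of Control was horse 11 at 1.73 and horse 13 at 2.39, and the ranges overlapped. The week 0 library of horse 11 held 17431476 reads, had the highest spread of the 70 (4.21) and held no read for 14 of the 150 genes. That of horse 13 held 29443605 reads at a spread of 3.68. By gene the median of iPAAG minus Control was 0.61 (-0.80 to 3.14, median SE 0.57), with 133 of the 150 above 0 against 9360 of all 15838 genes. An unadjusted p under 0.05 was reached by 22 of the 150 and 727 of all genes, and without horse 11 by 8 and 439, with a median of 0.41. With array weights the median was 0.25. In the change from week 0 to week 2 none of the 150 was called either (0% of all genes), 2 had an unadjusted p under 0.05 against 632 of all genes, and the median was -0.22 (-2.44 to 2.17, median SE 0.78) with 51 above 0. The direction of that median was not stable, since it was 0.35 with array weights (115 above 0), 0.08 without horse 7 and -0.58 with libraries of spread 3 or more. The fall and the later return are thus not shown to differ between the arms. The number of wide iPAAG libraries after week 2, from 2 to 6 per week, limits what could be detected.

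**Figure D5:**
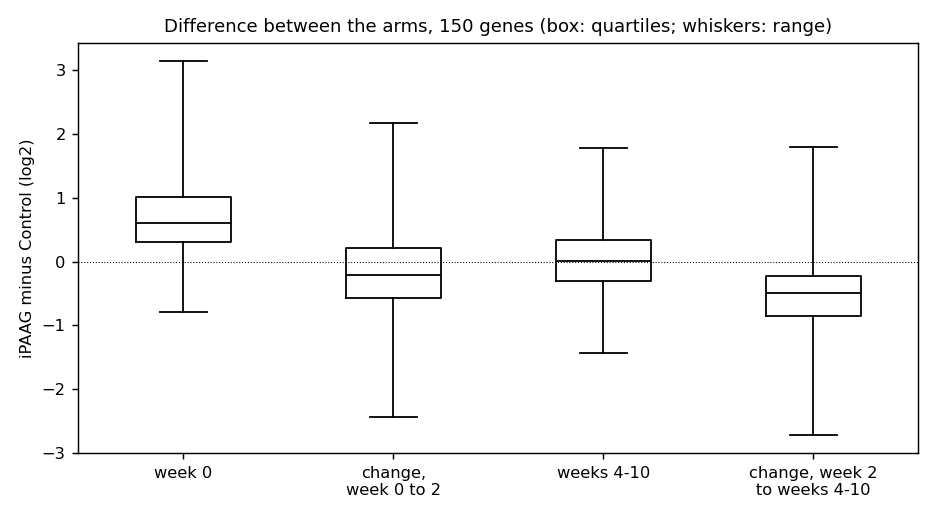
Fitted difference iPAAG minus Control on the log2 scale (y axis) for the 150 genes in 4 comparisons (x axis), with boxes at the quartiles, a line at the median and whiskers to the lowest and highest gene. The medians are 0.61 at week 0, -0.22 for the change from week 0 to week 2, 0.00 over weeks 4 to 10 and -0.49 for the change from week 2 to weeks 4 to 10, and no gene was called in any of them.

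The scatter of the 150 genes between horses was wide and largely shared. The SD within arm-by-week groups was 0.57 to 3.18 with a median of 1.15, against a median of 0.88 for the 606 genes that stayed low and 0.40 for all genes with a mean of at least 1. The deviations from the group means correlated with a median r of 0.50 over all pairs of the 150 genes, and 92.4% of pairs were above 0, over 70 libraries. For the 606 genes the median r was 0.32, and for all genes with a mean of at least 1 it was 0.02. Of the 150 genes, 147 correlated positively with the mean of the group and 59 with an r above 0.8 (median 0.74). The correlations are a description, since the genes share the same libraries, with their depth and spread, and each gene is itself part of that mean. The first principal component of the deviations held 50.5% of the variance of the 150 genes. At week 4 the mean of the 150 genes ran from 0.46 in Control horse 9 to 4.26 in Control horse 1.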

How the data were processed

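Synovial fluid cells were pelleted and their total RNA made into stranded low-input libraries, per the labels' protocols. The submitters' processing notes name STAR 2.7.10b, EquCab3.0 and limma 3.62.2. How reads were counted, with or without strand, and against which annotation is not given in the sources used here, so the reads of overlapping or near-identical genes are uncertain. The authors deposited log2 CPM values with 0.5 reads added, relative to a scaled library size. Whole reads were recovered from them for 100.0% of values within 0.05 reads. The table has 15838 genes and 93 libraries.

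The members and lists were chosen with earlier results of these data known. The named genes are the 2 with the lowest week 2 minus week 0 value and, of the rest, the 2 with the largest rise from week 2 to weeks 4 to 10. Gene lists and cell markers could not be used without symbols.

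Tests used limma 3.58.1 in R 4.3.3 on the 70 libraries of spread 2 or more, with 12 arm-by-week means, horse as a random block (correlation 0.09), a mean-variance trend and Benjamini-Hochberg adjustment over all genes at 0.05. Genes past this threshold are termed called. The same horses were sampled at each week, which pairs the libraries. Deviations from group means had a mean correlation of 0.10 within a horse and -0.01 between horses. No pair of libraries was identical. Values by week were computed in Python 3.11.15. The model was tested on simulated data.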

Additional observations from a re-analysis of the deposited data

Results flagged for a closer look

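In 50 groups of 4 to 8 libraries, formed by arm and week for the mean of the 150 genes and for the named genes, 3 had an extreme library far from the others, and chance gives about 1 in 20. All 3 come from the week 2 and week 6 libraries of Control horse 11. The week 6 library was flagged both for the mean and for a gene that is part of it. At week 6 the mean of the 150 genes was 2.46 in it, with the nearest other Control library at 3.82. ENSECAG00000018067 stood at 0.55 in its week 2 library, with the nearest other at 2.91, and at 5.27 in its week 6 library, with the nearest other at 6.75. Without horse 11, 117 of the 150 genes were called in weeks 8 and 10 against weeks 4 and 6, all higher, with a median of 1.17, when 10.7% of all genes were called higher.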

How the results depend on the processing

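The comparison of weeks 8 and 10 with weeks 4 and 6 called 110 of the 150 genes (10.6% of all genes higher). It called 74 with all 93 libraries (3.69%), 112 with library spread as a covariate (11.4%) and 123 with array weights (13.9%). With depth as a covariate it called 112, after median centring 112 and after quantile normalization 119. The share of all genes in those fits is not given here. It called 1 in Control horses alone (0.0695%), 18 in iPAAG horses alone (3.15%) and 0 in the libraries of spread below 2 (0%). In the libraries of spread below 2 the median over the genes was -0.0048, and ENSECAG00000013567 and ENSECAG00000012558 stood at -0.25 and -0.67. The cause was not tested. Leaving out 1 horse gave 6 to 117 genes, with the 6 without horse 5 and 96 or more without any other. The arm difference over weeks 4 to 10 called 0 genes (0.385% of all genes), and 41 with all libraries (52.9%). It called 1 with libraries of spread 3 or more (0.682%), 1 with library spread as a covariate (0.208%) and 1 with no replicate block. Leaving out 1 horse gave 0 to 1. The arm difference in the change from week 2 called 0 genes, and 2 (1.33%) with array weights, when 1.27% of all genes were called. The other arm comparisons called 0 of the 150 genes under each alternative run.

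The replicate block is the horse. With horse as a fixed block the comparison of weeks 8 and 10 with weeks 4 and 6 called 129 genes, and with no block 99. The share of all genes called in these fits is not given here. The fixed block called 0 genes in both arm comparisons of a change, and it could not be fitted for the arm levels, since each horse is in 1 arm.

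The rule passed 250 genes before the limit on number, 134 in iPAAG horses alone, of which 51 were among the 150, 329 in Control horses alone, of which 131 were among the 150, and 396 with the later level allowed to lie 0.5 of the fall below week 0. Leaving out 1 horse gave 187 to 300 genes, with 110 to 149 of the 150 still passing. Applied to all 93 libraries it passed 340 genes, 126 of the 150 among them. Fewer of the 150 were kept once the limit on number was applied as well. That left 65 with all 93 libraries, 84 in Control horses alone and 81 with the later level allowed at 0.5 of the fall. Leaving out 1 horse then kept 110 to 135. The covariate, single-arm, single-week, equal-weight and narrow-library fits were chosen after seeing the data.

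The few wide iPAAG libraries of weeks 4, 6 and 10 limit each comparison of arms. Reads are not counted molecules, and genes at few reads have the least precise differences.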
